A study of Mus musculus with 6 samples.

Results

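The 51 genes described here carry the DNA damage response of mammalian cells: the kinases that sense damage and halt the cell cycle, and the enzymes of homologous recombination, the Fanconi anaemia pathway, mismatch repair, single-strand break repair, end joining, nucleotide excision repair and direct reversal of damage. They were chosen by name, and every probe set annotated to exactly 1 of the symbols was collected. Probe sets were found for 50 of the 51 genes, 112 probe sets in all among 34945 that name 1 gene. Xrcc2, a recombination gene, had none and was not analysed here, and H2afx was matched under its current symbol H2ax. The brightest probe set stands for each gene, here as for all 18193 genes measured.

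RNA came from small cell lung tumours that grew in mice of a mixed C57BL/6;129Sv/J background carrying a triple knockout of Rb, p53 and p130, so that tumours of both fractions lack these tumour suppressors. Tumours were taken 6 to 7 months after infection with adenovirus carrying Cre, and no treatment was given. Whether other cells in the sorted fractions lack Rb, p53 and p130 was not tested. Each of mice 1127, 920 and 0107 gave a fraction sorted as tumour-propagating cells (TPCs) and a fraction sorted as non-TPCs by staining of CD24, CD44 and EpCAM, which makes 3 arrays per fraction. The labels state neither the gates, nor the promoter that drove Cre, nor the age of the mice. Values are RMA signals on a log2 scale, where 1 unit is a 2-fold step, and every difference is TPC minus non-TPC.

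Damage signalling starts with the kinases ATM, which responds to double-strand breaks, and ATR, which responds to single-stranded DNA at stalled replication forks. They activate CHK2 and CHK1, which with WEE1 hold cells back from mitosis while breaks are mended either by copying the sister chromatid or by joining the ends directly. Small cell lung cancer is known for near-universal loss of RB and p53, for an initial response to platinum compounds that damage DNA, and as a disease in which inhibitors of PARP, ATR, CHK1 and WEE1 have been studied.

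The arrays carried the labelled tumour type in both fractions and a difference in other cell types. Of 10 neuroendocrine markers 8 were measured, and the log2 of their summed signal was 13.44 to 14.04 in TPCs and 13.33 to 13.60 in non-TPCs. Calca and the alveolar marker Lamp3 were among those not analysed here. Summed signals of non-tumour markers were lower in TPCs. For 8 of 9 alveolar type 2 markers it was 11.05 to 11.20 in TPCs, against 12.75 to 13.58 in non-TPCs, and for 9 of 9 fibroblast markers 10.71 to 11.75 in TPCs, against 11.87 to 14.52 in non-TPCs. For 12 of 12 leukocyte markers it was 11.42 to 12.38 in TPCs, against 12.55 to 13.48 in non-TPCs, and for 8 of 8 endothelial markers 10.64 to 11.11 in TPCs, against 11.03 to 11.40 in non-TPCs. The endothelial ranges overlap, and 4 of the 12 leukocyte markers had a positive mean difference. Past limma's threshold were 2 alveolar and 1 leukocyte marker, all lower in TPCs. RMA signals have no true zero, and no marker was at 0. The part of these cells in the differences of the repair genes was not tested, and in sorted bulk samples fewer cells of a type and less RNA per cell cannot be told apart.

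No repair or checkpoint transcript passed the test between the fractions. Of the 50 genes, 0 had a higher and 0 a lower level in TPCs by limma with adjusted p below 0.05, a threshold that 11 of all 18193 genes, or 0.0605%, passed, all of them lower. A replicate block for the mouse again gave 0, against 0.0715% of all genes. At an unadjusted p under 0.05 there were 2 of the 50, Xrcc3 and Xpc, against 6.48% of all genes, and 4 with the replicate block, where Rad52 and Ercc5 joined them, against 9.85%. The mean differences ran from -0.59 for Rad52 to 0.45 for Xrcc3, so the largest was a 1.504-fold difference, and their median was -0.07 with quartiles of -0.24 and 0.06. Over all genes the median was 0.04 with quartiles of -0.12 and 0.17. With 3 mice per fraction an exact permutation test of a single gene cannot go below p = 0.1, or 0.25 over the 3 pairs.

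The intervals show how large a difference the data leave room for. For 44 of the 50 genes the 95% interval of the difference lay between -1 and 1, that is within a 2-fold change in either direction, and the same held for 81.4% of all genes. The interval reached 0.28 to 1.03 to either side of the difference, with a median of 0.49. The 6 genes with wider bounds were Brca2, Rad52, Blm, Exo1, Lig4 and Ercc5. In this fit, which leaves out the pairing of the fractions by mouse, a 2-fold difference lay inside their interval in at least 1 direction. With the replicate block the intervals of 48 of the 50 genes lay between -1 and 1, and the exceptions were Blm (-1.09 to 0.54) and Rad52 (-1.08 to -0.09).

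**Figure D1:**
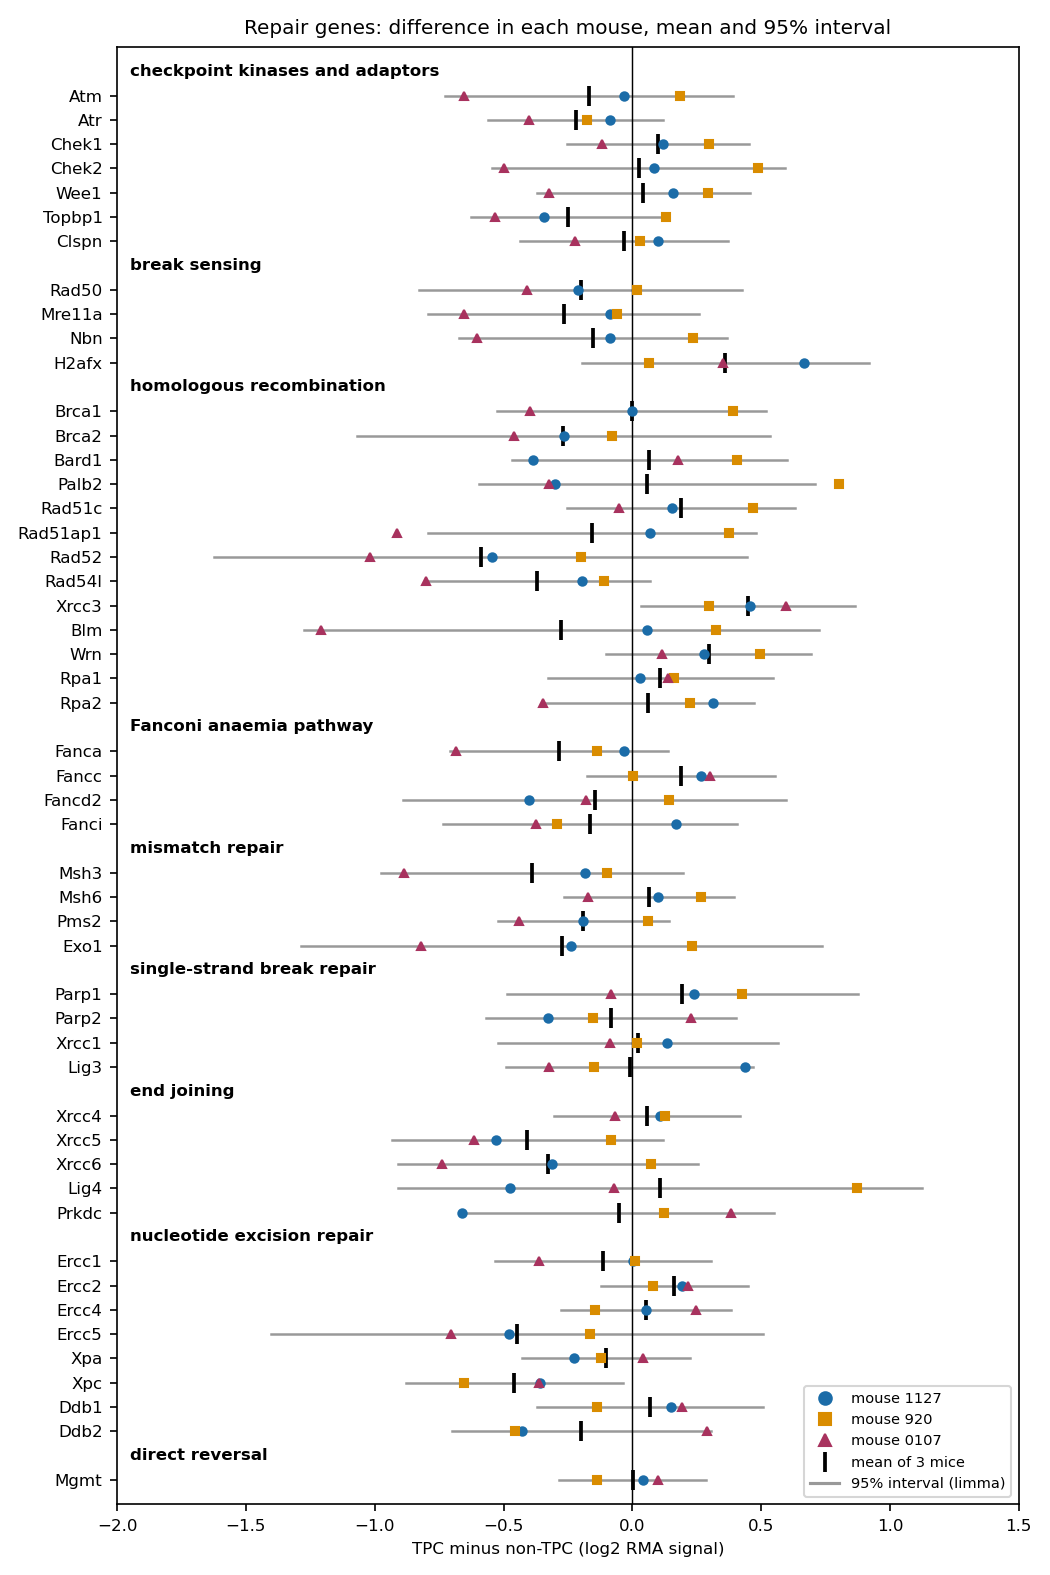
TPC minus non-TPC difference of each of the 50 repair genes on the log2 scale, grouped by role. Coloured symbols are the 3 mice, black ticks the means and grey lines the 95% intervals from limma. All means lie between -0.59 and 0.45, and the symbol of mouse 0107 is below 0 for 36 of the 50 genes.

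Of the 7 checkpoint genes 0 passed the test, and their mean differences ran from -0.25 to 0.10. Atr, the kinase of stalled forks, was the only one with the same direction in all 3 mice. Its level was 8.41, 8.49 and 8.48 in TPCs of mice 1127, 920 and 0107, against 8.50, 8.66 and 8.88 in their non-TPCs (difference -0.22, SE 0.14, 95% interval -0.56 to 0.12, adjusted p = 0.877 in limma). The TPC arrays all lay below the non-TPC arrays, by less than 0.1 in mouse 1127. When arrays were centred on their medians the direction in that mouse was lost. The Atr probe set next in brightness differed by -0.28, with 0.02 in mouse 0107. The dimmest one differed by -0.28, with 0.0052 in that mouse, so the shared direction rests on the probe set chosen.

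Atm, the kinase of double-strand breaks, stood at 8.25, 8.76 and 8.35 in the TPC arrays, against 8.28, 8.58 and 9.01 in the non-TPC arrays of the same mice (difference -0.17, SE 0.23, 95% interval -0.73 to 0.39, adjusted p = 0.933 in limma). The fractions overlapped, and the gap was widest in mouse 0107. Chek1, the effector kinase downstream of ATR, stood at 10.89, 11.14 and 10.99 in the TPC arrays, against 10.77, 10.85 and 11.10 in the non-TPC arrays (difference 0.10, SE 0.15, 95% interval -0.25 to 0.45, adjusted p = 0.935, limma). It was higher in TPCs of mice 1127 and 920 and lower in those of mouse 0107, and so was Wee1, the kinase that keeps CDK1 phosphorylated and inactive. Wee1 levels were 8.89, 9.19 and 8.68 in TPCs and 8.74, 8.90 and 8.9998 in non-TPCs (difference 0.04, SE 0.17, 95% interval -0.37 to 0.46, adjusted p = 0.973, limma). Chek2, the effector kinase downstream of ATM, differed by 0.02, Topbp1, which activates ATR, by -0.25, and Clspn, the adaptor that brings CHK1 to ATR, by -0.03, with adjusted p of 0.989, 0.877 and 0.98 in limma. A second Clspn probe set above the median level of all genes had the opposite sign, at 0.28, as 0.35, 0.19 and 0.305 in mice 1127, 920 and 0107.

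Among the break sensors, the 3 genes of the MRN complex and the histone gene H2afx leaned in different directions. Mre11a, the nuclease of the complex, stood at 7.88, 7.48 and 7.63 in the TPC arrays, against 7.96, 7.54 and 8.28 in the non-TPC arrays of mice 1127, 920 and 0107 (difference -0.27, SE 0.22, 95% interval -0.79 to 0.26, adjusted p = 0.899 in limma). It was lower in TPCs of all 3 mice, by less than 0.1 in 2 of them, and after centring of the arrays not in all. A second bright Mre11a probe set had the opposite sign, at 0.04, and with the mean of both the difference was -0.11. Its partners Rad50 and Nbn differed by -0.20 and -0.15, with -0.41 and -0.60 in mouse 0107. H2afx, whose protein is phosphorylated around breaks, stood at 9.42, 9.02 and 8.73 in the TPC arrays, against 8.76, 8.96 and 8.38 in the non-TPC arrays (difference 0.36, SE 0.23, 95% interval -0.20 to 0.92, adjusted p = 0.877, limma). It was higher in TPCs of 3 of 3 mice, and the fractions overlapped. The array measures the transcript, not the phosphorylated protein that serves as a damage marker.

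Of the 13 measured homologous recombination genes, 3 were higher and 3 were lower in TPCs of all 3 mice, and none passed the test. Xrcc3, which acts when recombination intermediates are formed and resolved, had the largest positive difference of the 50 genes. It stood at 7.08, 6.89 and 7.41 in the TPC arrays, against 6.62, 6.59 and 6.82 in the non-TPC arrays of mice 1127, 920 and 0107 (difference 0.45, SE 0.17, 95% interval 0.04 to 0.86, adjusted p = 0.734 in limma, and 0.39 with the replicate block). All TPC arrays lay above all non-TPC arrays. Both Xrcc3 probe sets were below the median level of all genes, and the dimmer one differed by 0.09.

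Wrn, the RecQ helicase lost in Werner syndrome, stood at 8.46, 8.67 and 8.71 in the TPC arrays, against 8.18, 8.17 and 8.59 in the non-TPC arrays (difference 0.30, SE 0.17, 95% interval -0.10 to 0.69, adjusted p = 0.868, limma), and its other probe sets differed by 0.26 and 0.50. Rpa1, the large subunit of the protein that coats single-stranded DNA, stood at 12.53, 12.28 and 12.70 in the TPC arrays, against 12.50, 12.12 and 12.57 in the non-TPC arrays (difference 0.11, SE 0.18, 95% interval -0.33 to 0.54, adjusted p = 0.939, limma). The order of the mice was the same in both fractions, and the step between fractions was smaller than the step between mice. Rpa2, its partner subunit, differed by 0.06.

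On the lower side, Rad54l, a DNA translocase of recombination, stood at 8.70, 8.57 and 8.48 in the TPC arrays, against 8.90, 8.68 and 9.28 in the non-TPC arrays (difference -0.37, SE 0.18, 95% interval -0.81 to 0.07, adjusted p = 0.825, limma). The gap was widest in mouse 0107, and 2 further bright Rad54l probe sets had the opposite sign, at 0.20 and 0.09. Rad52, a mediator of strand annealing, stood at 5.62, 4.78 and 5.51 in the TPC arrays, against 6.17, 4.98 and 6.53 in the non-TPC arrays of mice 1127, 920 and 0107 (difference -0.59, SE 0.43, 95% interval -1.62 to 0.45, adjusted p = 0.887, limma). Both fractions were lowest in mouse 920, and with the replicate block the SE was 0.19 and limma's unadjusted p 0.0279 (adjusted p = 0.422). Both Rad52 probe sets were below the median level of all genes. The dimmer one differed by -0.07, with 0.22 in mouse 1127, and with the mean of both the difference was -0.33.

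The breast cancer genes showed no common direction. Brca1, the ubiquitin ligase that steers breaks towards recombination, stood at 9.19, 9.60 and 8.76 in the TPC arrays, against 9.20, 9.21 and 9.16 in the non-TPC arrays (difference -0.0029, SE 0.22, 95% interval -0.53 to 0.52, adjusted p = 0.998, limma). Its non-TPC levels were nearly the same in the 3 mice, while the TPC arrays lay on either side of them. Brca2, a mediator of recombination, stood at 8.86, 8.77 and 9.50 in the TPC arrays, against 9.13, 8.84 and 9.96 in the non-TPC arrays (difference -0.27, SE 0.34, 95% interval -1.07 to 0.53, adjusted p = 0.925, limma). It was lower in TPCs of 3 of 3 mice, and both fractions of mouse 0107 stood above both fractions of the other two. Bard1, the partner of BRCA1, differed by 0.07 and Palb2, the bridge between BRCA1 and BRCA2, by 0.06, with -0.30, 0.80 and -0.33 in mice 1127, 920 and 0107. Rad51c differed by 0.19, Rad51ap1 by -0.16, and Blm, the helicase lost in Bloom syndrome, by -0.28.

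The 4 Fanconi anaemia genes, which act on cross-linked DNA, were split. Fanca, a member of the core complex, stood at 7.05, 6.77 and 6.51 in the TPC arrays, against 7.08, 6.91 and 7.19 in the non-TPC arrays (difference -0.28, SE 0.18, 95% interval -0.71 to 0.14, adjusted p = 0.877, limma). It was lower in TPCs of all 3 mice, by 0.03 in mouse 1127, and the direction there was lost after centring. Fancc, another core member, stood at 6.93, 6.93 and 7.23 in the TPC arrays, against 6.67, 6.92 and 6.93 in the non-TPC arrays (difference 0.19, SE 0.15, 95% interval -0.17 to 0.55, adjusted p = 0.898, limma). All 3 mice had a positive difference, which was 0.0009 in mouse 920, and its other probe sets differed by -0.01 and -0.30. Fancd2 and Fanci, which form the clamp that the core complex ubiquitinates, differed by -0.15 and -0.17.

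In mismatch repair, Msh3, which recognises small insertion and deletion loops, stood at 7.96, 7.84 and 7.96 in the TPC arrays, against 8.14, 7.94 and 8.85 in the non-TPC arrays of mice 1127, 920 and 0107 (difference -0.39, SE 0.24, 95% interval -0.98 to 0.20, adjusted p = 0.877 in limma). The 3 TPC arrays were within 0.13 of each other, and the non-TPC array of mouse 0107 stood apart from the rest. Msh6, the partner that recognises base mismatches, differed by 0.06, Pms2, a nicking subunit, by -0.19, and Exo1, the exonuclease that removes the nicked strand, by -0.27. A second bright probe set had the opposite sign for Pms2, at 0.11, and for Exo1, at 0.15.

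The 4 single-strand break genes had mean differences of -0.08 to 0.19. Parp1, which marks nicks with poly(ADP-ribose) and is the target of PARP inhibitors, stood at 9.82, 9.60 and 10.12 in the TPC arrays, against 9.58, 9.17 and 10.21 in the non-TPC arrays (difference 0.19, SE 0.29, 95% interval -0.49 to 0.88, adjusted p = 0.935, limma). The order of the mice was the same in both fractions. Its other probe sets above the median level differed by -0.14 and -0.33, so the sign for Parp1 depended on the probe set. Parp2 differed by -0.08, the scaffold Xrcc1 by 0.02 and the ligase Lig3 by -0.01.

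Of the end-joining genes, both subunits of Ku, the ring that grips broken ends, had negative means. Xrcc5, which encodes Ku80, stood at 7.77, 8.27 and 8.25 in the TPC arrays, against 8.30, 8.35 and 8.87 in the non-TPC arrays (difference -0.41, SE 0.22, 95% interval -0.93 to 0.12, adjusted p = 0.858, limma). The fractions did not overlap, since every TPC array lay below every non-TPC array. Xrcc6, which encodes Ku70, differed by -0.33, as -0.31, 0.07 and -0.74 in mice 1127, 920 and 0107. A dimmer Xrcc6 probe set, below the median level of all genes, had the opposite sign, at 0.07. Prkdc, the catalytic kinase that Ku recruits, stood at 8.07, 8.33 and 8.91 in the TPC arrays, against 8.72, 8.21 and 8.53 in the non-TPC arrays (difference -0.05, SE 0.25, 95% interval -0.65 to 0.55, adjusted p = 0.978, limma), and the mice disagreed in direction. Xrcc4 and its ligase partner Lig4 differed by 0.06 and 0.11, and Lig4 had -0.48, 0.87 and -0.07 in the same mice.

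Nucleotide excision repair removes bulky lesions, among them those left by platinum compounds. Xpc, which finds such lesions across the genome, was with Xrcc3 one of the 2 genes with an unadjusted p under 0.05 in the unpaired fit, and their adjusted p were tied. Its level was 6.91, 6.75 and 7.24 in TPCs of mice 1127, 920 and 0107, against 7.27, 7.40 and 7.60 in their non-TPCs (difference -0.46, SE 0.18, 95% interval -0.88 to -0.04, adjusted p = 0.734 in limma, and 0.39 with the replicate block). Every TPC array lay below every non-TPC array, and Xpc has a single probe set. Ercc2, a helicase of the TFIIH complex, stood at 7.85, 7.70 and 7.80 in the TPC arrays, against 7.66, 7.62 and 7.58 in the non-TPC arrays (difference 0.16, SE 0.12, 95% interval -0.12 to 0.45, adjusted p = 0.887, limma). The fractions did not overlap here either, and the 3 mice were close together. A dimmer Ercc2 probe set had the opposite sign, at -0.10, and with the mean of both the difference was 0.03.

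The nucleases and damage binders of the same pathway had negative and positive means. Ercc5, the nuclease that cuts on the 3′ side, differed by -0.45, as -0.48, -0.16 and -0.70 in mice 1127, 920 and 0107 (limma adjusted p = 0.901, and 0.456 with the replicate block). Ercc1 and Ercc4, the nuclease pair of the 5′ side, differed by -0.12 and 0.05. Xpa differed by -0.10, Ddb1 by 0.07 and Ddb2, a damage sensor, by -0.20. Mgmt, which strips alkyl groups from guanine, stood at 6.75, 6.66 and 6.79 in the TPC arrays, against 6.70, 6.79 and 6.69 in the non-TPC arrays (difference 0.0021, SE 0.12, 95% interval -0.28 to 0.29, adjusted p = 0.998, limma), and had the narrowest range among mice of the 50 genes.

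**Figure D2:**
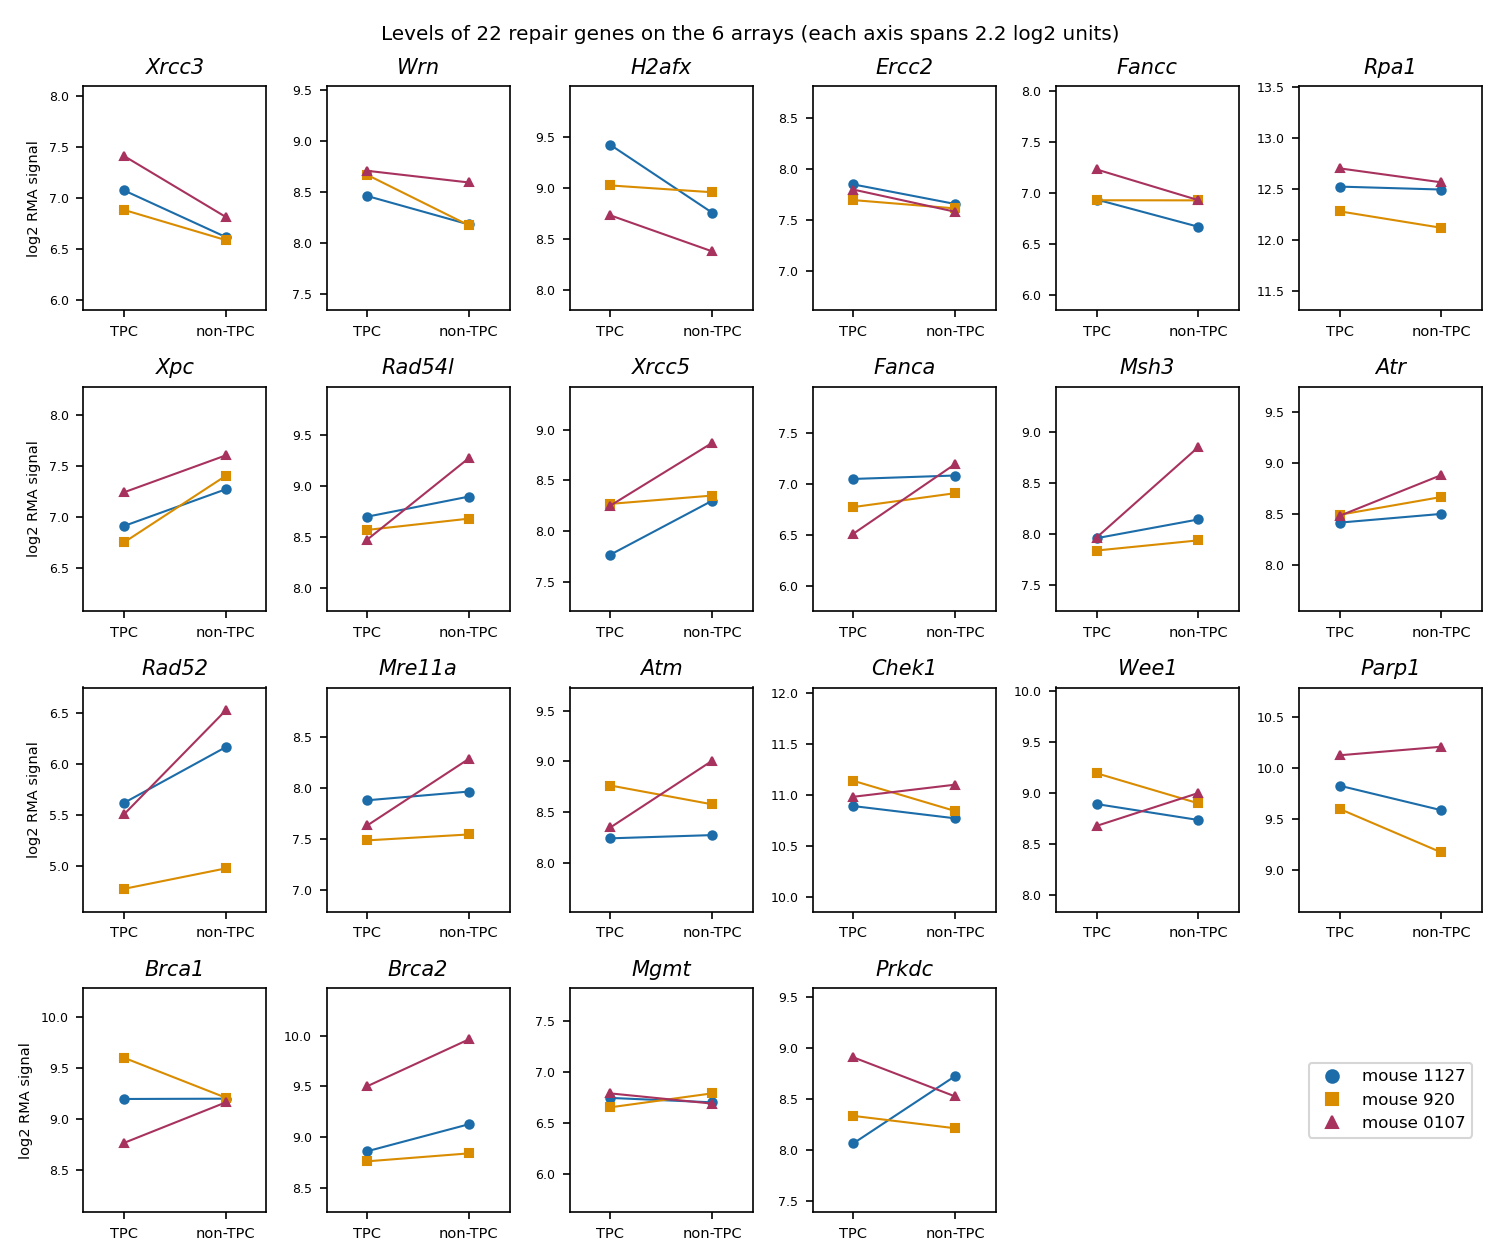
Level of 22 repair genes on the 6 arrays as log2 RMA signal, TPCs left and non-TPCs right in each panel, with a line joining the fractions of a mouse. Xrcc3, Ercc2, Xpc, Xrcc5 and Atr are the ones whose fractions do not overlap.

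Across all 50 genes, 6 were higher in TPCs of all 3 mice, namely Xrcc3, Wrn, H2afx, Ercc2, Fancc and Rpa1, and 10 were lower in all 3. Over all genes these shares were 19.7% and 13.8%. The 10 lower genes were Xpc, Rad54l, Xrcc5, Fanca, Msh3, Atr, Rad52, Mre11a, Ercc5 and Brca2. Centring of the arrays shifts the difference in mouse 1127 by 0.13, and with it 7 genes were lower in all 3 mice, without Atr, Mre11a and Fanca. The fractions did not overlap for 5 of the 50 genes, against 12.6% of all genes.

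The direction of the repair genes was not the same in the 3 mice. In mouse 1127 26 of the 50 genes were lower in TPCs, in mouse 920 18 and in mouse 0107 36, where the shares of all genes were 40.7%, 42.1% and 53.6%. The medians of the 50 differences were -0.02, 0.07 and -0.32 in mice 1127, 920 and 0107, against 0.07, 0.05 and -0.03 for all genes. A within-mouse step of more than 0.5, about 1.41-fold, downwards was seen for 3 genes in mouse 1127, 1 in mouse 920 and 14 in mouse 0107, where 10.7%, 7.59% and 13.0% of all genes had one. Upward steps of that size were seen for 1, 2 and 1 of the 50 genes, against 6.40%, 4.82% and 12.3% of all genes. A pair of arrays gives no test within 1 mouse.

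**Figure D3:**
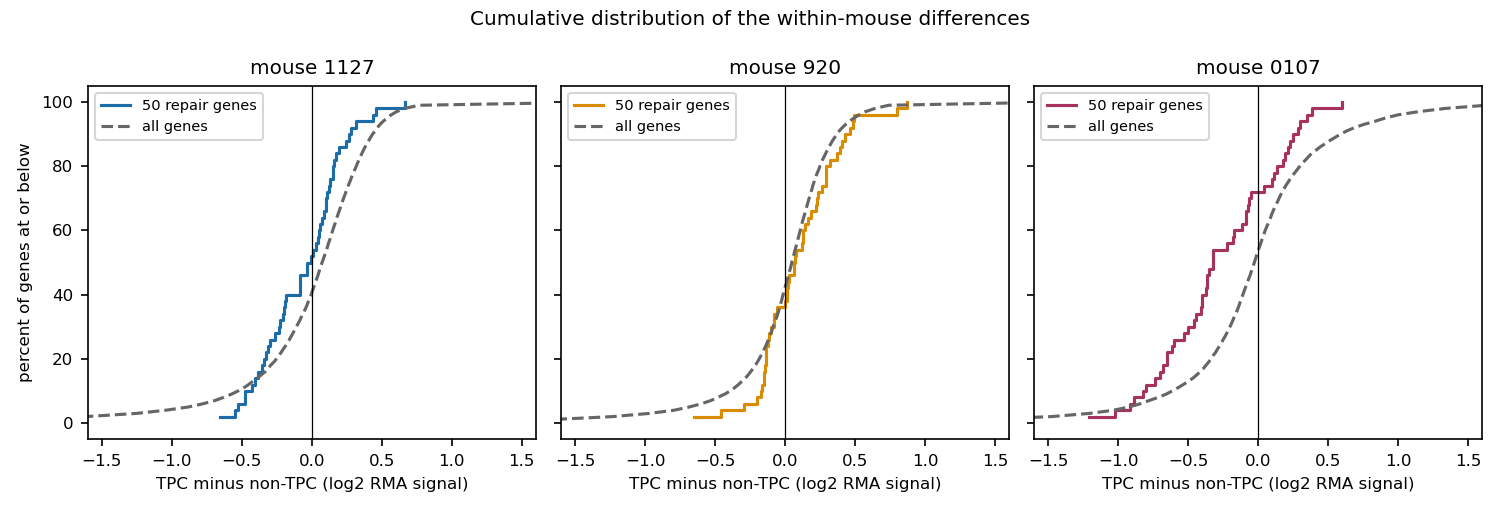
Cumulative share of genes by their TPC minus non-TPC difference on the log2 scale, 1 panel per mouse. Solid lines are the 50 repair genes and dashed lines all 18193 genes. The solid line lies mostly left of the dashed one in mouse 0107, where the medians are -0.32 and -0.03.

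The 14 genes with the large downward step in mouse 0107 came from all but 2 of the roles. Blm had the largest, with 8.53 for TPCs against 9.74 for non-TPCs, and in mice 1127 and 920 it differed by 0.06 and 0.32. Rad51ap1 had 9.94 for TPCs against 10.86 for non-TPCs there, and its other 3 probe sets had steps of -1.03, -1.01 and -0.75. Of 7 further bright probe sets of the 14 genes 5 were below 0 in mouse 0107, and the exceptions belonged to Topbp1, at 0.29, and Mre11a, at 0.07. Exo1 had 8.15 for TPCs against 8.97 for non-TPCs. The others were Rad52, Msh3, Rad54l, Xrcc6, Ercc5, Fanca, Mre11a, Atm, Xrcc5, Nbn and Topbp1, with steps of -1.02 to -0.53. With the mean of all probe sets of a gene in place of the brightest, the count was 8. Chek2, at -0.498, lay just outside the step, and Topbp1, at -0.53, just inside.

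The non-TPC array of mouse 0107 held the highest value for 28 of the 50 genes, where 28.2% of all genes had their highest value on it. Of 23 measured proliferation genes, 13 had their highest value on the same array, while Rrm2, a subunit of ribonucleotide reductase, had its lowest there. In this list 12 genes were lower by more than 0.5 in TPCs of mouse 0107, 0 in those of mouse 920 and 1 in those of mouse 1127, with medians of -0.64, 0.22 and 0.09. Mki67, a marker of cycling cells, stood at 11.94, 12.44 and 11.48 in the TPC arrays, against 12.28, 12.25 and 12.38 in the non-TPC arrays of mice 1127, 920 and 0107 (difference -0.35, SE 0.24, 95% interval -0.93 to 0.24, adjusted p = 0.886, limma). Of 8 endothelial markers 7 were highest on that array. Their median was 5.03, 5.16 and 5.15 in the TPC arrays, against 6.51, 5.34 and 7.31 in the non-TPC arrays of mice 1127, 920 and 0107, and the log2 of their summed signal was 11.11, 10.64 and 10.65 in the TPC arrays, against 11.40, 11.03 and 11.10 in the non-TPC arrays. By the summed signal mouse 1127 was the highest. The part of either list in the step of the repair genes was not tested. Without mouse 0107 the median difference of the 50 genes was 0.01 and 19 genes were higher and 13 lower in both remaining mice. The same shares over all genes were not computed, so nothing about the repair genes is read from these counts.

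Many repair genes are transcribed in S phase under E2F factors, which RB and p130 restrain. The letters of the E2F consensus, TTTCCCGC, TTTCGCGC, TTTGCCGC or TTTGGCGC on either strand with overlapping matches counted, were searched in RefSeq promoter windows of GRCm38.p6 that run from 250 bases before to 50 bases after a gene's start. Windows were found for 40 of the 50 genes, and 9 of them, or 22.5%, held a match. Among 14452 genes of the arrays with a window 3.81% did, and among all 32851 windows 2.26%. Of the genes with the large step in mouse 0107 3 of 12 held a match, and of the others 6 of 28. A match is a string of letters and not a mapped binding site.

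Clspn, Msh6 and Rad51c held the match only after the start or across it. The other 6 genes are shown because they carry a match wholly before the start. Each is given as the match in capitals with up to 30 bases on either side, read 5′ to 3′ on the gene's strand. The stretch of Msh3 is chr13:92355164-92355235 (- strand), that of Xrcc6 chr15:82016293-82016360 (+ strand), that of Topbp1 chr9:103305168-103305235 (+ strand), that of Chek2 chr5:110839801-110839868 (+ strand), that of Brca2 chr5:150522423-150522490 (+ strand) and that of Bard1 chr1:71103144-71103211 (- strand).
Msh3: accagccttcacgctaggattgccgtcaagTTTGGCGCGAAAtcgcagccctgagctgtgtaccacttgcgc
Xrcc6: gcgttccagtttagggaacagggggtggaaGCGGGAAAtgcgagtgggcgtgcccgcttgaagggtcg
Topbp1: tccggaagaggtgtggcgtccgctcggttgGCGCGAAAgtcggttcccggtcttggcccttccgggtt
Chek2: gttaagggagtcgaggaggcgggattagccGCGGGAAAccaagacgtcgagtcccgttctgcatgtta
Brca2: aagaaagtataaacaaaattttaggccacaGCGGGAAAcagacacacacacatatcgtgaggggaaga
Bard1: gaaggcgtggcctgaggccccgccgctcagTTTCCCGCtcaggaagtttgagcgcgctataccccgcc
In Msh3 a match on each strand overlaps. The first 3 of these genes were among the 14, with steps of -0.89, -0.74 and -0.53 in mouse 0107, while Chek2 and Brca2 differed there by -0.50 and -0.46 and Bard1 by 0.18. Clspn, Msh6 and Rad51c, which held a match but are not shown, differed in that mouse by -0.22, -0.17 and -0.05.

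The level of several of these genes differed widely between animals. For 43 of the 50 the range of the mouse means, each taken over both fractions, was larger than the mean difference between the fractions, as it was for 78.5% of all genes. A range over 3 means tends to exceed a single difference by its construction, and the count lies near that of all genes, so nothing about the repair genes is read from it. The median range was 0.41 and the median size of the difference 0.16, against 0.33 and 0.15 for all genes. Exo1 had the widest range, with mouse means of 7.86, 7.40 and 8.56 in mice 1127, 920 and 0107. Rad52 followed with 5.89, 4.88 and 6.02, Lig4 with 8.36, 7.27 and 7.84, Ercc5 with 7.06, 7.04 and 8.07 and Brca2 with 8.9969, 8.80 and 9.73. Mouse 0107 was the highest of the 3 for Exo1, Rad52, Ercc5 and Brca2, and mouse 1127 for Lig4. Xpc, Xrcc3, Rad54l, Fanca, Topbp1, Pms2 and Ercc2 were the 7 whose fractions differed by more than the mice. The SD over the 3 mice had a median of 0.21 in TPCs, against 0.28 in non-TPCs, and over all genes 0.17 in TPCs, against 0.24 in non-TPCs. It was smaller in TPCs for 35 of the 50 genes and for 67.1% of all genes, so the repair genes lay near all genes in this too.

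**Figure D4:**
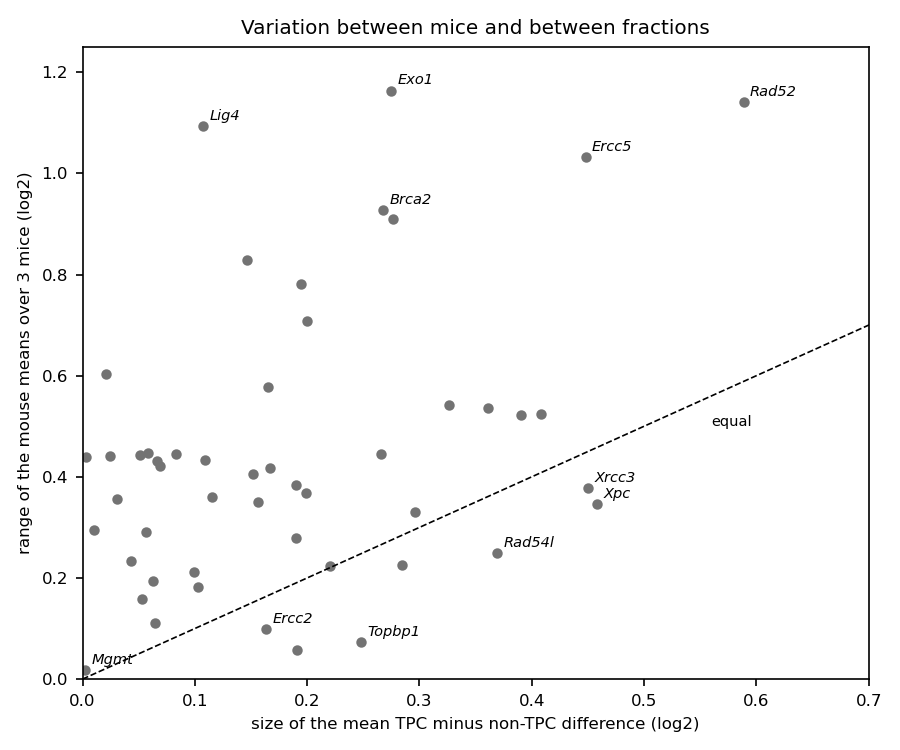
Range of the mouse means over the 3 mice against the size of the mean TPC minus non-TPC difference, both on the log2 scale, for the 50 repair genes. The dashed line marks equal values. 43 points lie above it, with Exo1 at a range of 1.16 and Mgmt at 0.02.

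Other genes of the same pathways gave the same count of calls. Among 98 further genes in 4 lists 87 were measured, 0 passed in either direction, and the median difference was 0.01, with 0.07, 0.17 and -0.24 in mice 1127, 920 and 0107. Of the 87, 6, 1 and 29 were lower by more than 0.5 in TPCs of these mice, against 10.7%, 7.59% and 13.0% of all genes. The non-TPC array of mouse 0107 held the highest value for 42 of the 87, against 28.2% of all genes. At an unadjusted p under 0.05 in limma there were 4 of the 87, 3 higher and 1 lower, against 6.48% of all genes, of which 386 were higher and 792 lower. Mlh3, a mismatch repair nuclease subunit, stood at 7.81, 7.54 and 7.84 in the TPC arrays, against 7.24, 7.19 and 6.86 in the non-TPC arrays of mice 1127, 920 and 0107 (difference 0.63, SE 0.16, 95% interval 0.24 to 1.02, adjusted p = 0.517, limma). All 3 pairs stepped upwards, as they did for Mnat1, the assembly factor of the CDK-activating kinase of TFIIH, which differed by 0.62 (limma adjusted p = 0.622). Cetn2, a partner of XPC, differed by 0.34, and Rad18, a ubiquitin ligase of lesion bypass, by -0.41.

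In the checkpoint and fork list 0 of 18 measured genes passed. The phosphatase gene Cdc25b, which opposes WEE1, differed by 0.42, the clamp subunit gene Hus1 by -0.33, the cohesin gene Smc1a by -0.39 and Etaa1, an ATR activator, by -0.25. In the recombination and Fanconi list 0 of 26 passed, with Ube2t, which conjugates ubiquitin to FANCD2, at 0.32, Fancm at 0.21, the nuclease scaffold Slx4 at -0.29 and Fancb at -0.35. Of 20 base excision, mismatch and reversal genes 0 passed. Aptx, which cleans abortive ligation ends, differed by -0.37, Parg, which removes poly(ADP-ribose), by 0.33 and the flap nuclease gene Fen1 by 0.15. Among 23 end-joining and excision genes, of which 0 passed, the polymerase gene Poll differed by 0.32.

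Genes that p53 activates after damage were measured in fractions sorted from tumours made to lack it, which also carried signal of other cell types. Of 20 such genes 19 were measured and 0 passed, with a median of 0.13. In TPCs of all 3 mice 6 were higher and 6 lower, against 19.7% and 13.8% of all genes. At an unadjusted p under 0.05 in limma there were 5 of the 19, against 6.48% of all genes, namely Fas, Plk3, Plk2 and Pmaip1 on the lower side and Gadd45a on the higher. Fas, a death receptor, stood at 4.04, 4.18 and 4.15 in the TPC arrays, against 4.88, 4.97 and 5.54 in the non-TPC arrays of mice 1127, 920 and 0107 (difference -1.01, SE 0.20, 95% interval -1.48 to -0.54, adjusted p = 0.275, limma). Its TPC signals lay below the first quartile of every array, and so did those of Pmaip1, which encodes the apoptosis factor NOXA and was lower in TPCs of 3 of 3 mice, so the size of either difference is uncertain. Plk3 and Plk2, kinases of the Polo family, differed by -0.53 and -0.40, each lower in TPCs of 3 of 3 mice. Gadd45a, a stress-induced growth arrest gene named after its values were seen, was the 1 gene of the 5 that was higher in TPCs. It stood at 8.38, 8.94 and 7.78 in the TPC arrays, against 7.33, 7.99 and 7.35 in the non-TPC arrays (difference 0.81, SE 0.33, 95% interval 0.02 to 1.59, adjusted p = 0.76, limma). Cdkn1a, which encodes the CDK inhibitor p21, stood at 11.33, 11.87 and 10.89 in the TPC arrays, against 11.00, 11.68 and 9.83 in the non-TPC arrays (difference 0.53, SE 0.49, 95% interval -0.64 to 1.69, adjusted p = 0.903, limma), and was higher in TPCs of all 3 mice. Mdm2, the ubiquitin ligase of p53, differed by -0.10. The alveolar, fibroblast and leukocyte marker levels given above differ between the same arrays, and their part in these values was not tested. Whether those cells kept p53 was not tested either, so the values are not read as those of p53-deficient cells alone.

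The proliferation list had 0 of 23 genes past the test and a median of -0.07. Mcm2, a subunit of the replicative helicase, differed by 0.29, Rrm2 by 0.35, the topoisomerase gene Top2a by -0.39 and the thymidylate synthase gene Tyms by -0.37. Mcm2 and Rrm2 were higher in TPCs of 3 of 3 mice, while Top2a differed by -0.05, -0.08 and -1.03 in mice 1127, 920 and 0107. Of the 23 genes, 3 were higher and 2 lower in TPCs of all 3 mice, against 19.7% and 13.8% of all genes.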

How the data were processed

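Affymetrix arrays were read for 6 sorted samples. Per the submitters' processing notes the tool was RMA, and the deposited values are log2 signals per probe set. As a method RMA corrects background, quantile normalises and summarises probes. Neither RMA's version nor the log base is stated in the labels, and log2 was read from values of 2.70 to 14.81 and array medians of 6.01 to 6.04. Precision rests on the number of arrays, 3 per fraction. The labels name a whole-transcript labelling kit, and the effect of this on signals was not tested.

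Probe sets were named from the platform annotation, updated through Entrez identifiers to RefSeq (GRCm38.p6). Of 45101 probe sets, 34945 named 1 gene, and the brightest stood for each of 18193 genes. No intensity filter was applied.

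The comparison used limma 3.58.1 under R 4.3.3 (two-sided, fraction as the only term, Benjamini-Hochberg over all genes, threshold 0.05), tested on simulated data. Both fractions of a mouse share an animal, so the arrays are paired. Their deviations from the fraction means correlated at 0.30, 0.46 and 0.36 in mice 1127, 920 and 0107, against at most -0.08 between mice. Such deviations cancel out within a fraction, so positive values within mice force negative ones between mice. The pairing is taken from the shared animal and not from this contrast. The main fit leaves this pairing out, so the spread of a gene in its p-values, SEs and intervals is that between the 3 arrays within each fraction. With the replicate block it is the spread of the within-mouse differences. In both fits limma draws each gene's variance towards a value estimated over all genes. The SEs and intervals are therefore not those of a gene's own spread alone. Mgmt, with SDs of 0.07 in TPCs and 0.05 in non-TPCs, had an SE of 0.12 in the main fit. The SE of Ercc5 was 0.40 in the main fit and 0.16 with the block, while that of Topbp1 was 0.16 and 0.18. Levels on every array are given for up to 8 genes per direction with the smallest p among those sharing a direction in all mice (6 higher, 8 lower), and for 10 genes the rule named, of which Atr and H2afx were already among these. Ercc5 and Brca2 were also lower in all mice but ranked below the 8. Other lists name up to 4 genes by p, and by the rule Cdkn1a, Mdm2 and Mki67. The genes and lists were chosen with earlier results of these data known, and the step of 0.5 and the promoter letters after seeing the values. Alternatives were a replicate block, a random block, bright genes only, the mean of all probe sets, median centring, a trended robust prior, and leaving out mice or arrays.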

Additional observations from a re-analysis of the deposited data

How the results depend on the processing

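Under all 15 alternatives 0 of the repair genes passed, and their smallest limma adjusted p over these settings was 0.361, for Wrn with the non-TPC array of mouse 0107 left out. The replicate block, which pairs the fractions of a mouse, gave 13 called genes in all against 11 and changed no call of a repair gene. The count over all genes was 39 with the mouse as a random block and 4 with the mean of all probe sets, and ranged from 0 (without mouse 1127) to 84 (without that non-TPC array) when a mouse or array was left out. The number of repair genes with an interval within a 2-fold change ranged from 32 to 48 over all alternatives. The median difference lay between -0.19 and 0.03, above 0 only without mouse 0107 or its non-TPC array. Genes higher in every remaining mouse numbered 8 to 19 when a mouse was left out, and lower ones 12 to 21, where fewer pairs have to share a sign. Shares of all genes were not computed for these settings. The count lower by more than 0.5 in mouse 0107 was 8 with the mean of all probe sets. Of 22 genes given by array, 13 kept the sign of their difference in every setting run for them (14 for Xrcc3 and Rad52, which bright genes only leaves out, and 15 for the others), and Atm, Brca1, Brca2, Fancc, Mgmt, Parp1, Prkdc, Rpa1 and Wee1 did not. Of 21 further bright probe sets 10 had the sign of the brightest one, so directions of single genes rest on the probe set chosen. The direction counts need both arrays of a mouse and were not run without single arrays.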
